A study of Mus musculus with 202 samples.

Results

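Complex I, the NADH:ubiquinone oxidoreductase of the inner mitochondrial membrane, was followed through all 45 symbols starting with Nduf (pseudogenes marked -ps left out) of the 23995 gene symbols in a table of raw read counts. They were 36 subunits, 7 Ndufaf assembly factors, and Ndufa4 with its paralogue Ndufa4l2, which carry the name but were kept apart because Ndufa4 is now placed in complex IV. The libraries were Smart-seq2 libraries of single oocytes at metaphase II (MII) from C57Bl/6J mice. The groups differed by the diet of the F0 female (control, CD, or high fat and high sugar, HFHS) and by that animal's hormone treatment (vehicle, Veh, or dihydrotestosterone, DHT, an androgen). F1, F2 and F3 oocytes come from descendants of these females. There were 4 groups in F1 (CD+Veh, CD+DHT, HFHS+Veh and HFHS+DHT), the same 4 in F2, and 3 in F3 (CD+Veh, CD+DHT and HFHS+Veh).

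Oocytes were used where their genes held at least 100000 counts and at least 4000 genes were detected, which kept 157 of 202. The F1 groups kept 10, 8, 14 and 13 of 15 oocytes each in the order given, the F2 groups 16 of 20, 25 of 25, 20 of 20 and 5 of 5, and the F3 groups 20, 13 and 13 of 24 each. Counts in genes ran from 133654 to 16359078 per kept oocyte. In 3 of the F2 groups the title of an oocyte carries a number before a point, which was read as its animal. CD+Veh and HFHS+Veh held 4 animals each and CD+DHT held 5. No animal is named in F1, in F3 CD+Veh and CD+DHT, or in F2 HFHS+DHT, so oocytes there may share a female. For 36 oocytes the characteristics contradict the title, and groups follow the titles. These are the hormone of 15 F1 HFHS+Veh and 5 F2 HFHS+DHT oocytes and the generation of 8 F2 and 8 F3 HFHS+Veh oocytes. F2 HFHS+DHT is described here but compared with no other group. Of 14 oocyte markers, 14 had a median above 0, and 6 of 6 leukocyte markers had a median of 0. Of 34 markers of the cumulus cells that surround the oocyte, 24 had a median of 0 and Areg had 0 counts, yet the summed cumulus level varied and its values are given beside the results it moved with.

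Complex I takes electrons from NADH and passes them through a flavin and a chain of iron-sulfur clusters in its matrix arm to ubiquinone, while its membrane arm pumps protons. A core conserved from bacteria carries out this chemistry, partly encoded by the mitochondrial genome, and nuclear-encoded accessory subunits surround it. Assembly factors build the enzyme in modules and leave before it is complete. The growing oocyte stores mitochondria and RNA for the embryo, and transcription has stopped by metaphase II, so the RNA measured here is a stored pool. The mitochondrially encoded subunits had 0 lines in the count table and are not analysed here.

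The promoters of 4 members are shown because these members stand for the patterns below: the abundant membrane-arm subunits Ndufb6 and Ndufb8, which were low in F3, the assembly factor Ndufaf4, which was less so, and the accessory subunit Ndufs4, whose median over oocytes in F3 was close to that in F1 and F2. The sequences are from RefSeq on GRCm38, 250 bases before to 50 bases after the annotated start, 5′ to 3′ on the gene's strand. Capitals mark TGCGCA (the core of the site of NRF1, a regulator of nuclear genes for mitochondria), CCGGAAG or its reverse complement CTTCCGG (ETS core), and AAGATGG or its reverse complement CCATCTT (YY1 core), each searched on both strands.
Ndufb6 (chr4:40279372-40279671, minus strand): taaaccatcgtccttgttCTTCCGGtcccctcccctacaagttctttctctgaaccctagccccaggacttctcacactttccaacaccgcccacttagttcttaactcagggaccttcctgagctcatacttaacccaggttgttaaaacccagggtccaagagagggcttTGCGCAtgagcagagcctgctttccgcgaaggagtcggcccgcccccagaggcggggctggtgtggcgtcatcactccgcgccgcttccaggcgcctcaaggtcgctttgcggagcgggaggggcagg
Ndufb8 (chr19:44555393-44555692, minus strand): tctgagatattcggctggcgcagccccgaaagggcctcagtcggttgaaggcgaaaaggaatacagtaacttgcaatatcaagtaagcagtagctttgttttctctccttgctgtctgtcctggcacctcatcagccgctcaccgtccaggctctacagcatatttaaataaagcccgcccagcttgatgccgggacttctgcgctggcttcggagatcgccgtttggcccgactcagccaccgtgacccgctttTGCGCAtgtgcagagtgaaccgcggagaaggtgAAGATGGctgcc
Ndufaf4 (chr4:24897833-24898132, plus strand): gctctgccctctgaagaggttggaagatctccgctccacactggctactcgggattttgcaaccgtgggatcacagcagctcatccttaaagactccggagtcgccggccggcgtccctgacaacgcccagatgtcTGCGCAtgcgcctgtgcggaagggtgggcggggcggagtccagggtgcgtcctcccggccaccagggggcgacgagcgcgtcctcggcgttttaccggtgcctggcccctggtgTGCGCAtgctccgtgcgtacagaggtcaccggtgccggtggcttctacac
Ndufs4 (chr13:114388045-114388344, minus strand): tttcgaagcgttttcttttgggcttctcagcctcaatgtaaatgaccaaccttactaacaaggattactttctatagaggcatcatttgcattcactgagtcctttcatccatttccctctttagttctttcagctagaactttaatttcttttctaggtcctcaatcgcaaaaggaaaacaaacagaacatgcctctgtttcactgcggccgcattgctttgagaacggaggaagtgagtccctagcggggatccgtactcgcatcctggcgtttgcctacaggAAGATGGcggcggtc

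Ndufb6 lies on the minus strand of chromosome 4 (40270591 to 40279421), Ndufb8 on the minus strand of chromosome 19 (44548572 to 44555440), Ndufaf4 on the plus strand of chromosome 4 (24898083 to 24905001) and Ndufs4 on the minus strand of chromosome 13 (114287795 to 114388258), all protein-coding in GENCODE vM21 on GRCm38. The Ndufb6 window held CTTCCGG at position -232 and TGCGCA at -78 from the start. In Ndufb8, TGCGCA began at 6 and AAGATGG at 39. Ndufaf4 held TGCGCA at -114 and at 1, and Ndufs4 held AAGATGG at 36. A promoter window was matched for 39 members. TGCGCA was found in 11 of them (28.2%), against 15.4% of the 6936 windows of genes with at least 1000 counts in the kept oocytes and 8.06% of all 27025 windows. AAGATGG was in 7 members (17.9%), against 7.87% and 6.48%. In these members it lay on the gene's own strand and after the annotated start, from position 23 (Ndufa3) to 39 (Ndufb8). The ETS core was in 5 members (12.8%), against 18.9% and 9.12%. The median number of CpG dinucleotides per window was 20 in members, 22 in the genes with at least 1000 counts and 7 in all windows. These matches describe letters in the windows and show no binding.

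Over the 157 kept oocytes of all generations, accessory subunits of the membrane arm and a few assembly factors were abundant, while the catalytic core was low. On the authors' RPKM scale, which is per length and was the scale used for comparing genes, Ndufa4 was the highest symbol, with a median of 318 over the 157 oocytes (quartiles 59.1 and 478), above 99.2% of all genes. Ndufa10, a membrane-arm subunit with the fold of a nucleoside kinase, had a median of 136 (90.6 and 196). Ndufaf2, a paralogue of Ndufa12 that holds its place in the matrix arm during assembly, had 112 (34.4 and 156). Ndufb6 (85.4), Ndufa1 (72.2), Ndufb8 (71.4) and Ndufb2 (64.9), all small membrane-arm subunits, and Ndufaf4 (41.9), which works early in building the matrix arm together with Ndufaf3, followed. The quartiles of Ndufb6, Ndufa1, Ndufb8 and Ndufb2 overlapped widely (30.9 to 123, 10.28 to 126, 22.698 to 101 and 9.54 to 94.4), so their order is not resolved. These medians mix generations. In F3 alone Ndufa10 was the highest, at 99.5, with Ndufa4 at 28.3. There Ndufa1 (3.43) and Ndufb2 (5.69) lay close to the core subunits Ndufv2 (2.85) and Ndufs1 (2.48).

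Among the 7 core subunits, RPKM medians were 4.51 for Ndufs3, 3.89 for Ndufv2, 3.096 for Ndufs1, 0.812 for Ndufs7, 0.222 for Ndufs8 and 0 for Ndufv1. Ndufv1 binds NADH and the flavin, Ndufv2 and Ndufs1 carry iron-sulfur clusters, Ndufs7 lines the ubiquinone site, and Ndufs8 carries clusters that lead to it. The median over genes of such medians was 0.812 over the 7 core subunits, 4.07 over 9 matrix-arm accessory subunits, 11.1 over 19 membrane-arm accessory subunits and 0.936 over the 7 assembly factors. A count was found in at least 90% of oocytes for 0 of 7 core, 3 of 9 matrix-arm, 10 of 19 membrane-arm and 3 of 7 assembly-factor genes. The assembly factors were thus split: Ndufaf2, Ndufaf4 and Ndufaf7 (9.56), a methyltransferase of the matrix arm's assembly, were detected throughout, Ndufaf6 had a median of 0.936, and Ndufaf1, Ndufaf3 and Ndufaf5 had a median of 0, with a count in 29, 46 and 32 of 157 oocytes. Ndufab1, the mitochondrial acyl carrier protein that is also bound in complex I, had 6.55. Ndufv1 had a count in 71 oocytes and Ndufa4l2 in 43, so a median of 0 does not mean that no oocyte had one.

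**Figure D1:**
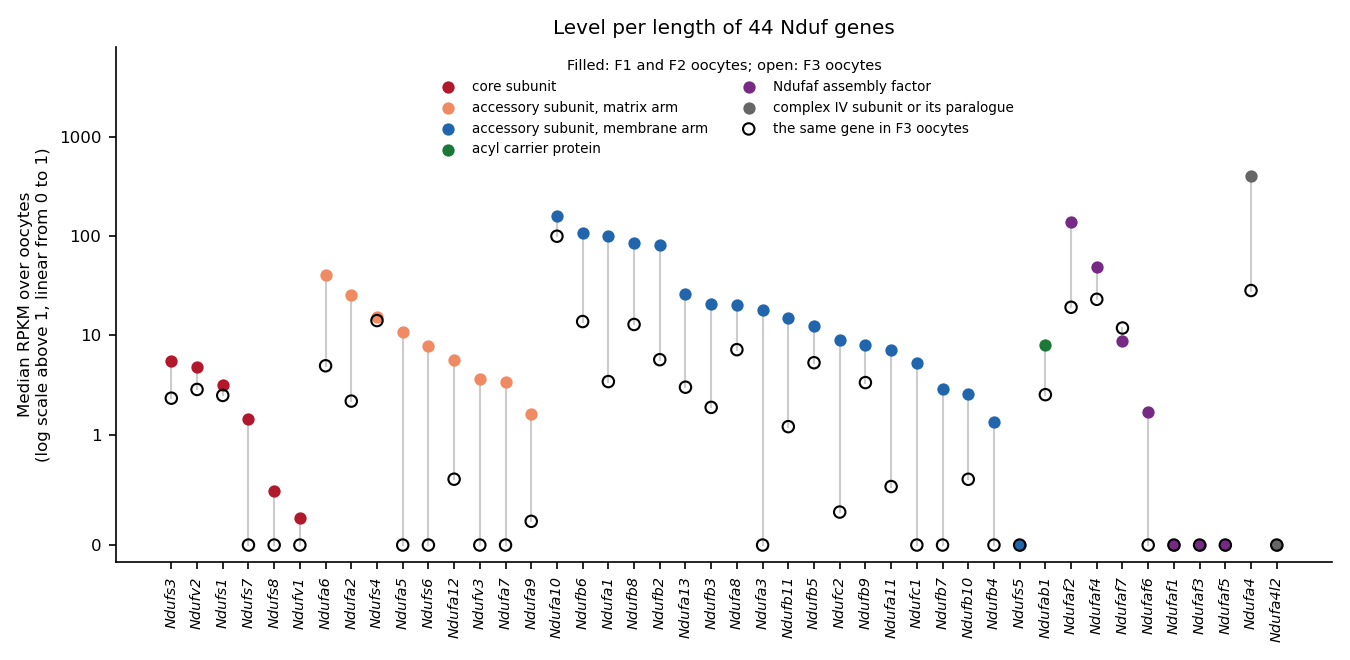
Median RPKM over oocytes of 44 Nduf genes, ordered by class, on an axis that is logarithmic above 1 and linear from 0 to 1. Filled points are the 111 F1 and F2 oocytes and open points the 46 F3 oocytes; the open points of Ndufa1, Ndufb6 and Ndufa4 lie far below the filled ones, while those of Ndufs4 and Ndufaf7 lie beside or above them.

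Counts of some members may hold reads of near-identical copies, since how the authors assigned such reads is not given in the sources used here. Of 50-base stretches in the transcripts, 53.8% were shared with another gene for Ndufa12 (Gm15920), 37.0% for Ndufb4 (Ndufb4c), 35.8% for Ndufs3 (Gm12251), 31.1% for Ndufs5 (BC002163) and 23.4% for Ndufb9. For 28 members none was shared. Ndufs5 had 23 counts in all, and the gene length implied by its counts and RPKM was 24.8 bases, against an annotated transcript of 680. Its level is therefore uncertain. The implied length of Ndufa11 was 2651 bases, against an annotated transcript of 545, so it stands among the long genes below only by the authors' length. Other members stand among the short genes only by implied length: Ndufb2 (453 against 4371), Ndufab1 (797 against 3479) and Ndufv3 (486 against 1582). So do Ndufc1 (412 against 1249), Ndufa13 (902 against 1251), Ndufb5 (995 against 1079), Ndufs3 (936 against 1046) and Ndufs8 (786 against 1005).

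The largest differences among the members were between generations. In every F3 group the summed subunits, in CPM (counts scaled to a total of 1000000 gene counts per oocyte), were lower than in the F1 and F2 groups at the median. The subunits summed to 440 CPM at the lowest, 658 at the median and 781 at the highest in F1 CD+Veh oocytes. F1 CD+DHT oocytes had 548, 674 and 772. F1 HFHS+Veh oocytes had 464, 679 and 1353, and F1 HFHS+DHT oocytes 329, 573 and 753. All 4 F1 groups overlapped. In F2 the lowest, median and highest sums were 478, 783 and 1131 in CD+Veh, 355, 659 and 977 in CD+DHT, 289, 671 and 1296 in HFHS+Veh, and 510.2, 618 and 677 in HFHS+DHT. The F2 groups overlapped each other and the F1 groups. In F3 they were 127, 240.3 and 2505 in CD+Veh, 152, 283 and 464 in CD+DHT, and 160.1, 256 and 369 in HFHS+Veh. The F3 groups overlapped each other, and their medians lay below the lowest F1 or F2 oocyte.

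The value of 2505 belongs to F3 CD+Veh oocyte 21, and the next highest there was 357. That library held 309794 counts, 14.33% of all reads in spike-in RNA, a summed cumulus level of 69827 CPM against a group median of 3039, and 290.5 CPM of the oocyte markers against 19837. Its summed core subunits were 1688 CPM. It held 684 CPM of Ndufs1, 226 of Ndufa9 and 219.5 of Ndufv3, it held 442 CPM of Ndufa4l2, and its assembly factors summed to 3.23 CPM. It gave 23.04% of the Ndufs1 counts and 62.6% of the Ndufa4l2 counts of its group.

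Assembly factors showed the same order of generations with a smaller difference. Their sums had medians of 283, 284, 265 and 296 CPM in the 4 F1 groups, with single oocytes from 178 to 551. In F2 the medians were 369, 304, 305 and 267 CPM, with single oocytes from 162 to 843. In F3 they were 128, 138 and 164 CPM, with single oocytes from 3.23 to 362. F3 oocytes thus reached into the F1 and F2 range for the assembly factors. Cumulus markers differed between generations as well: their summed medians were 1325, 1464, 2436 and 796 CPM in F1, 912, 960.2, 958 and 804 in F2, and 3039, 1816 and 3352 in F3. Their part in the result was not tested.

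**Figure D2:**
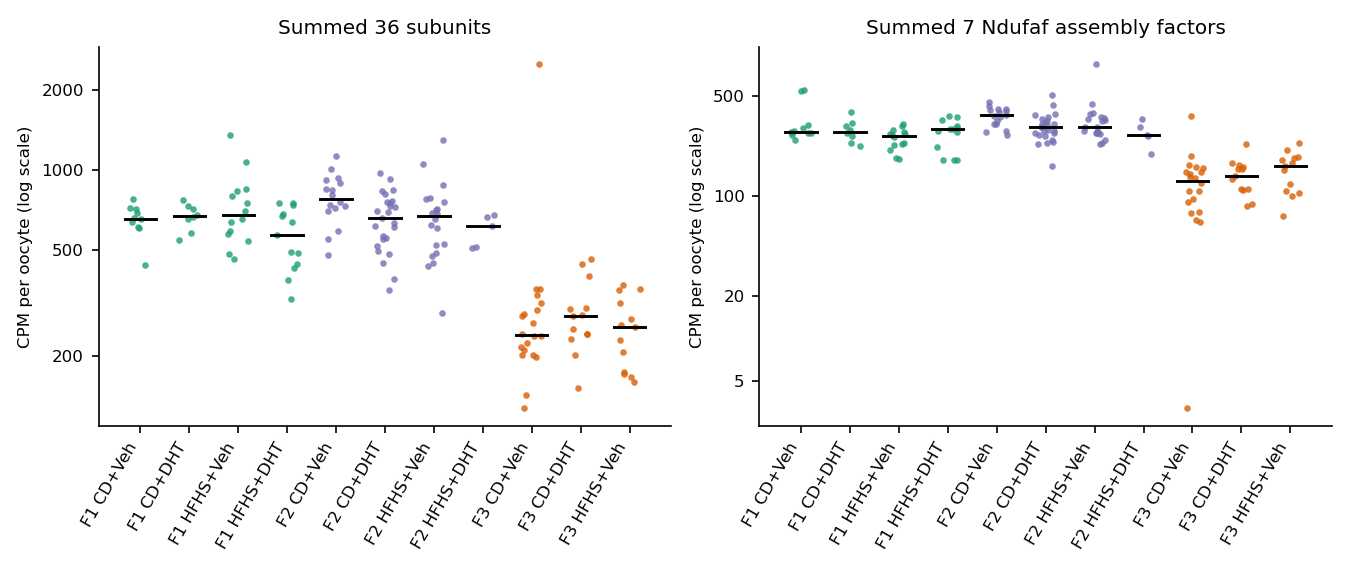
Summed CPM of the 36 subunits (left) and of the 7 Ndufaf assembly factors (right) in each kept oocyte, by group, on log axes; points are oocytes and bars are group medians. The subunit medians are 573 to 783 CPM in the F1 and F2 groups and 240.3 to 283 in F3, with 1 F3 CD+Veh oocyte at 2505.

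Single members differed in how far F3 lay below. Ndufa4 ran from 7.06 to 459 CPM, with a median of 198, in the 111 F1 and F2 oocytes and from 0 to 62.3, with a median of 13.8, in the 46 F3 oocytes. None of the 46 F3 oocytes was above the F1 and F2 median. The same held for Ndufa1, Ndufa2, Ndufa3, Ndufa5, Ndufa6, Ndufa11, Ndufa13, Ndufb2, Ndufb3, Ndufb6, Ndufb8 and Ndufaf2 (0 of 46 each). For how many of all genes this holds was not counted, so it is not read as particular to the members. Oocytes may share a female and are not separate replicates. Ndufa10 had medians of 191 and 120.0 CPM, and 4 of 46 F3 oocytes were above the F1 and F2 median. For Ndufaf4, with medians of 177 and 83.5, it was 2 of 46. Other members had medians in F3 that lay closer to those in F1 and F2. Ndufs4, whose loss is used as a mouse model of complex I deficiency, had medians of 23.8 CPM in F1 and F2 and 21.5 in F3, with 21 of 46 F3 oocytes above the F1 and F2 median. Its pooled value, which weights oocytes by depth, was close to that of F2 in CD+Veh (log2 fold of F3 over F2 -0.12) and higher in CD+DHT (0.81) and HFHS+Veh (0.60). Ndufaf7 had 20.3 and 27.2, with 29 of 46 F3 oocytes above the F1 and F2 median. The core subunit Ndufs1 had 7.58 and 5.98, with 22 of 46 above.

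Pooling the oocytes of a group, F3 was compared with F2 within each treatment. No test was made, because the F3 CD+Veh and CD+DHT oocytes name no animal, and generation cannot be told apart from whatever differed between the library preparations of the generations. This comparison was added after the values had been seen. In CD+Veh, 32 of the 44 members with more than 3 counts in both groups were at least 2-fold lower in F3 and 2 were at least 2-fold higher. In CD+DHT it was 28 of 44 lower and 3 higher, and in HFHS+Veh 23 of 36 and 2. The F3 HFHS+Veh pool held 7662016 counts, against 59430838 in F3 CD+Veh and 47884707 in F3 CD+DHT. Fewer members had more than 3 counts there. Of those with an implied length under 1000 bases 23 remained, against 30 in each of the other treatments. The counts and medians of HFHS+Veh are thus over a smaller set of members and are not directly comparable. Of all 5926 genes whose pooled values averaged 10 CPM or more across the 11 groups, 26.73%, 22.76% and 30.41% were at least 2-fold lower in these comparisons. The 17 members past that filter had 13, 11 and 13 that were. The filter's mean draws on 8 groups of F1 and F2, so it favours genes high there.

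The difference was larger in short genes. Of the 45 members, 31 have an implied length under 1000 bases. In CD+Veh, 26 of 30 members under 1000 bases were at least 2-fold lower in F3, against 84.96% of the 339 genes of that length past the filter, and 6 of 14 longer members, against 23.2% of 5587 genes. In CD+DHT it was 24 of 30 against 81.71%, and 4 of 14 against 19.19%. In HFHS+Veh it was 20 of 23 against 84.66%, and 3 of 13 against 27.12%. These members are those with more than 3 counts in both groups, whereas the shares of all genes are of genes past the filter of 10 CPM. Of the 11 short members past that filter, 11 were at least 2-fold lower in CD+Veh and likewise in HFHS+Veh, while 9 were for CD+DHT. Of the 6 longer ones, 2 were that low in each group. The median log2 fold of F3 over F2 was -3.29 in short and -0.61 in longer members in CD+Veh, -2.37 and -0.24 in CD+DHT, and -2.75 and 0.60 in HFHS+Veh. The longer members in CD+DHT ran from -0.41 without F3 oocyte 16 to 0.15 without F3 oocyte 15. Over the members past the filter the medians were -3.63 and -0.43, -3.16 and -0.20, and -3.52 and -0.15. Over all genes past it they were -2.19 and -0.09, -2.02 and 0.05, and -2.16 and -0.15.

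In CD+Veh the pooled level was 86.4-fold lower in F3 for Ndufa3, 32.8-fold for Ndufa1, 28.7-fold for Ndufa5, 24.2-fold for Ndufa4 and 20.5-fold for Ndufb2. These genes have implied lengths of 348 to 547 bases. It was 17.8-fold lower for Ndufa11, 9.37-fold for Ndufaf2, 8.74-fold for Ndufb6 and 8.25-fold for Ndufb8. It was 2.79-fold lower for Ndufaf4 and 1.68-fold for Ndufa10. The log2 fold of Ndufs1, Ndufaf7 and Ndufa9 was 0.12, 0.21 and 0.48. Oocyte 21 entered these pooled values. At the median over oocytes of all treatments Ndufa9 went the other way, with 2.15 CPM in F1 and F2 and 0.28 in F3. Of the 46 F3 oocytes 23 had 0 counts of Ndufa9, and the highest had 226 CPM. On the F2 side, animal 3 was the deepest of the CD+Veh animals, with 25402279 counts. It had 27.2 CPM of Ndufa3 and 24.6 of Ndufa5, against 5.93 to 16.1 and 5.39 to 6.96 in the others. The folds of Ndufa3 and Ndufa5 therefore lean on that animal. Across the F3 groups, 32 of 46 oocytes had 0 counts of Ndufa3 and 27 had 0 of Ndufa5. As each oocyte was left out in turn, the count of members at least 2-fold lower ran from 30 to 34 in CD+Veh, from 26 to 31 in CD+DHT and from 21 to 24 in HFHS+Veh. Across members, Spearman's rho between implied length and the log2 fold was 0.59 (44 genes), 0.71 (44) and 0.74 (36) in the 3 treatments, and across all genes past the filter 0.20, 0.24 and 0.19. Genes of 1 library pool share its depth and are not independent, so these are descriptions.

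**Figure D3:**
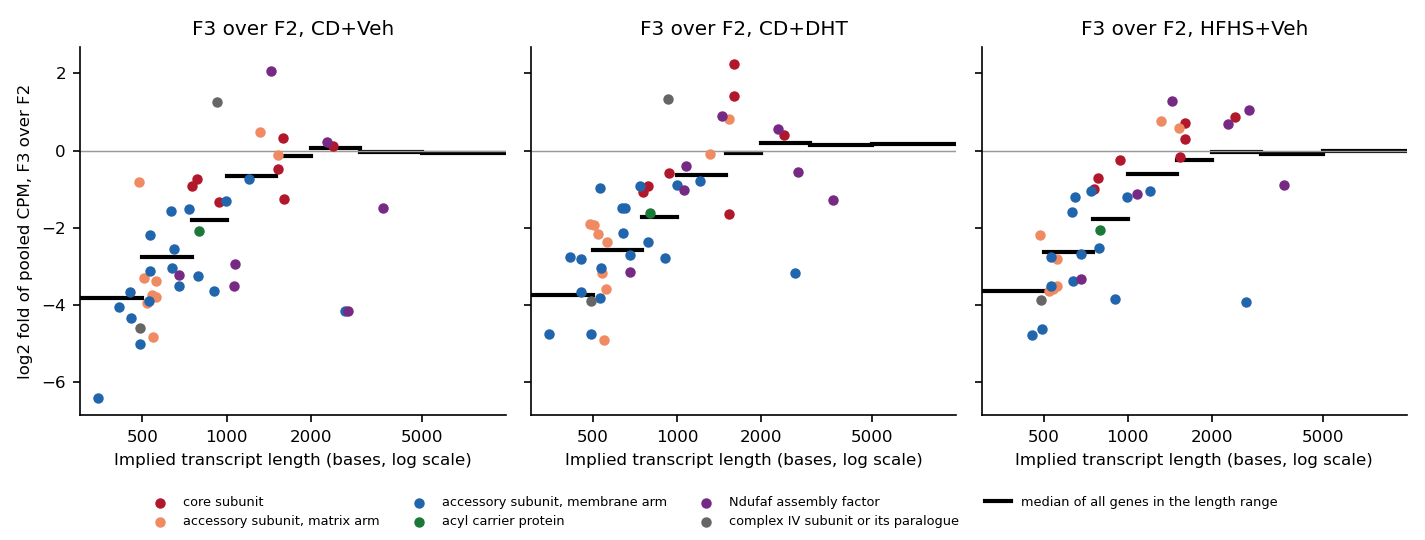
Log2 fold of pooled CPM in F3 over F2 (vertical) against the transcript length implied by the authors' counts and RPKM (horizontal, log scale) for each treatment; points are members coloured by class, and black bars are the median of all genes past the filter in each length range. Members under 1000 bases lie mostly below -1, as do the bars, and longer members scatter around 0 apart from a few near -4.

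The share of gene counts in short genes other than the members moved in the same way. The 2855 other genes under 1000 bases took a median of 6.02% to 8.03% of an oocyte's gene counts in the F1 and F2 groups and 1.68% to 2.62% in the F3 groups. The 8 F2 HFHS+Veh oocytes whose characteristics name F3 had 6.41% to 8.19% and Ndufa4 at 69.2 to 311 CPM, against 5.77% to 8.22% and 7.06 to 405 CPM in the other oocytes of the group. The 5 kept F3 HFHS+Veh oocytes whose characteristics name F2 had 0.641% to 2.41% and Ndufa4 at 0 to 10.9 CPM, against 1.16% to 3.48% and 5.68 to 48.1 CPM. On both measures these oocytes lay with the generation of their titles.

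Against F1, F3 gave the same direction: 31 of 42, 29 of 40 and 26 of 36 members with more than 3 counts in both groups were at least 2-fold lower in CD+Veh, CD+DHT and HFHS+Veh, against 22.21%, 21.46% and 28.6% of all genes past the filter. F2 and F1 differed less. In CD+Veh 0 of 42 members were at least 2-fold lower in F2 than in F1 (1.18% of all genes) and 16 were at least 2-fold higher (3.73%), 4 of them among the 17 past the filter. In CD+DHT it was 1 of 40 lower (0.675%) and 2 higher (1.13%), and in HFHS+Veh 9 of 44 lower (1.4%) and 0 higher (0.793%), with 0 of the 17 in either direction in these 2 treatments. The F2 oocytes serve both series of comparisons, so the values stand side by side.

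In F2, where animals are named, DHT or HFHS in the F0 female went with no called change in any member. The labels do not name the mothers of the F2 animals, so animals of a group may descend from the same F0 female. Counts were summed per animal (9939962 to 36059954 counts each) and tested with edgeR's quasi-likelihood test over 11962 genes. At a Benjamini-Hochberg adjusted p under 0.05, 0 genes (0%) were called for CD+DHT against CD+Veh and 0 (0%) for HFHS+Veh against CD+Veh. At an unadjusted p under 0.05 it was 220 and 118 genes. DESeq2 called 2 and 1, and limma 0 and 0. No member was among these calls. Of the 45 members, 43 had enough counts to be tested and Ndufaf5 and Ndufs5 had not.

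Summed subunits were 715, 770.4, 825 and 949 CPM in the 4 CD+Veh animals, 728, 783, 769.8, 484 and 626 in the 5 CD+DHT animals, and 484, 713, 683 and 884 in the 4 HFHS+Veh animals. Assembly factors summed to 355, 374, 371 and 336 CPM in CD+Veh, 378, 325, 287, 264 and 283 in CD+DHT, and 322, 337, 314 and 314 in HFHS+Veh. The groups overlapped for both sums. The cumulus sum was 819, 1189, 1020.0 and 1178 CPM, then 1193, 1215, 1365, 623 and 1431, then 550.2, 1084, 945 and 1865. The CD+DHT animal with 484 CPM of subunits and the HFHS+Veh animal with 484 had the lowest cumulus sums of their groups, 623 and 550.2. The part of cumulus RNA in the subunit sum was not tested.

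Of the 43 members tested, 30 had a log2 fold below 0 in CD+DHT, against 50.7% of all genes, and 33 in HFHS+Veh, against 47.2%. These counts share the 4 CD+Veh animals. The median log2 fold was -0.14 over 35 subunits, -0.22 over the 7 core subunits and -0.33 over 6 assembly factors in CD+DHT, where the median of all genes was -0.01. In HFHS+Veh it was -0.15, -0.16 and -0.08, and 0.02 over all genes. The subunit median ran from -0.31 without CD+DHT animal 9 to -0.02 without CD+DHT animal 8, and from -0.49 without HFHS+Veh animal 5 to -0.07 without HFHS+Veh animal 10. All 6 tested assembly factors were below 0 in CD+DHT, with a median from -0.62 to -0.07 as single animals were left out. In HFHS+Veh their median ran from -0.40 to -0.01 in that way, and was -0.51 without the oocytes whose characteristics name F3.

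In CD+DHT 1 member had an unadjusted p under 0.05 and a lower level (0.903% of all genes had), and 0 a higher level (0.936%). The count was 0 without CD+DHT animal 7 or CD+Veh animal 13, 2 without CD+DHT animal 9, 2 with DESeq2 and 3 with limma. These counts have no share of all genes beside them, since 0.903% is that of the edgeR fit on all animals. The 1 member of that fit was Ndufa11, a membrane-arm subunit at the contact of complex I with complex III. Its animals had 31.0, 21.98, 26.46 and 53.3 CPM in CD+Veh and 16.5, 27.9, 18.9, 15.6 and 17.8 in CD+DHT, which overlap. Its log2 fold was -0.59 ± 0.26 (SE, edgeR; unadjusted p = 0.0357, adjusted p = 0.9999). The next on that side were Ndufaf7 (-0.55 ± 0.29, unadjusted p = 0.0818 in edgeR) and Ndufb8 (-0.42 ± 0.23, 0.0867). On the other side stood Ndufs8 (1.38 ± 0.70, 0.0676), Ndufv2 (0.46 ± 0.38, 0.243) and Ndufb5 (0.29 ± 0.33, 0.406), which was -0.23 with limma. None of these passed the test. Ndufs8 had 0.499, 0.755, 1.71 and 4.13 CPM in CD+Veh and 2.096, 2.57, 5.4002, 5.72 and 3.06 in CD+DHT.

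The animals of CD+DHT lay entirely below those of CD+Veh for 2 members (0.752% of all genes) and above for 0 (0.184%). Ndufb8 had 65.98, 67.3, 84.7 and 81.4 CPM in CD+Veh and 43.4, 62.1, 58.7, 27.7 and 58.2 in CD+DHT. Ndufs6, an accessory subunit that binds zinc in the matrix arm, had 5.78, 6.54, 6.04 and 5.55 against 3.75, 5.29, 4.90, 2.45 and 3.92. The gap between the groups was small for both.

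In HFHS+Veh 4 members had an unadjusted p under 0.05 and a lower level (0.568% of all genes), and 0 a higher level (0.418%). The count was 2 without CD+Veh animal 13 or 14 or HFHS+Veh animal 4, again with no share of all genes beside it. Ndufa9, a matrix-arm subunit beside the ubiquinone site that binds NADPH, had 2.39, 3.78, 4.33 and 8.78 CPM in CD+Veh and 0.681, 0.915, 0.597 and 2.13 in HFHS+Veh. Its log2 fold was -2.05 ± 0.57 (SE, edgeR; unadjusted p = 0.00257, adjusted p = 0.99997). Every HFHS+Veh animal was below every CD+Veh animal, and in CD+DHT the values were 2.85, 2.61, 6.77, 4.90 and 4.202, within the range of CD+Veh. Ndufa9 was a low gene here, with a count in 103 of 157 oocytes.

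Ndufa4 had 299.9, 359, 230.4 and 363 CPM in CD+Veh and 170.3, 228, 178 and 207 in HFHS+Veh (-0.63 ± 0.23, unadjusted p = 0.0156 in edgeR). The groups were apart by little, 230.4 against 228. Ndufa11 had 21.19, 22.05, 17.33 and 17.33 in HFHS+Veh (-0.64 ± 0.27, 0.0334). Ndufaf7 had 34.0, 25.09, 25.65 and 27.3 in CD+Veh and 8.25, 22.68, 19.42 and 19.36 in HFHS+Veh (-0.68 ± 0.31, 0.0449). The adjusted p was 0.99997 for all of these in edgeR. The members with the smallest p on the other side were Ndufb5 (0.53 ± 0.35, unadjusted p = 0.149), Ndufb7 (1.37 ± 1.06, 0.218) and Ndufs8 (0.31 ± 0.72, 0.672), again in edgeR. The direction of Ndufs8 turned with limma (-0.12) and without HFHS+Veh animal 5 (-0.26). Ndufb5 and Ndufb7 are membrane-arm accessory subunits.

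Animals did not overlap and were lower in HFHS+Veh for 5 members (0.853% of all genes) and higher for 0 (0.301%). Besides Ndufa9, Ndufa4 and Ndufaf7 these were Ndufb11, with 12.2, 12.2, 14.8 and 23.1 CPM against 5.66, 11.9, 10.9 and 11.2, and Ndufa1, with 64.4, 68.1, 60.5 and 93.7 against 51.0, 49.6, 18.4 and 56.4. Both are small membrane-arm subunits. Leaving out the 8 oocytes of animals 10 and 5 whose characteristics name F3 removed animal 10 entirely and part of animal 5. In that edgeR fit 5 members had an unadjusted p under 0.05. The count rests on fewer animals and has no share of all genes beside it.

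**Figure D4:**
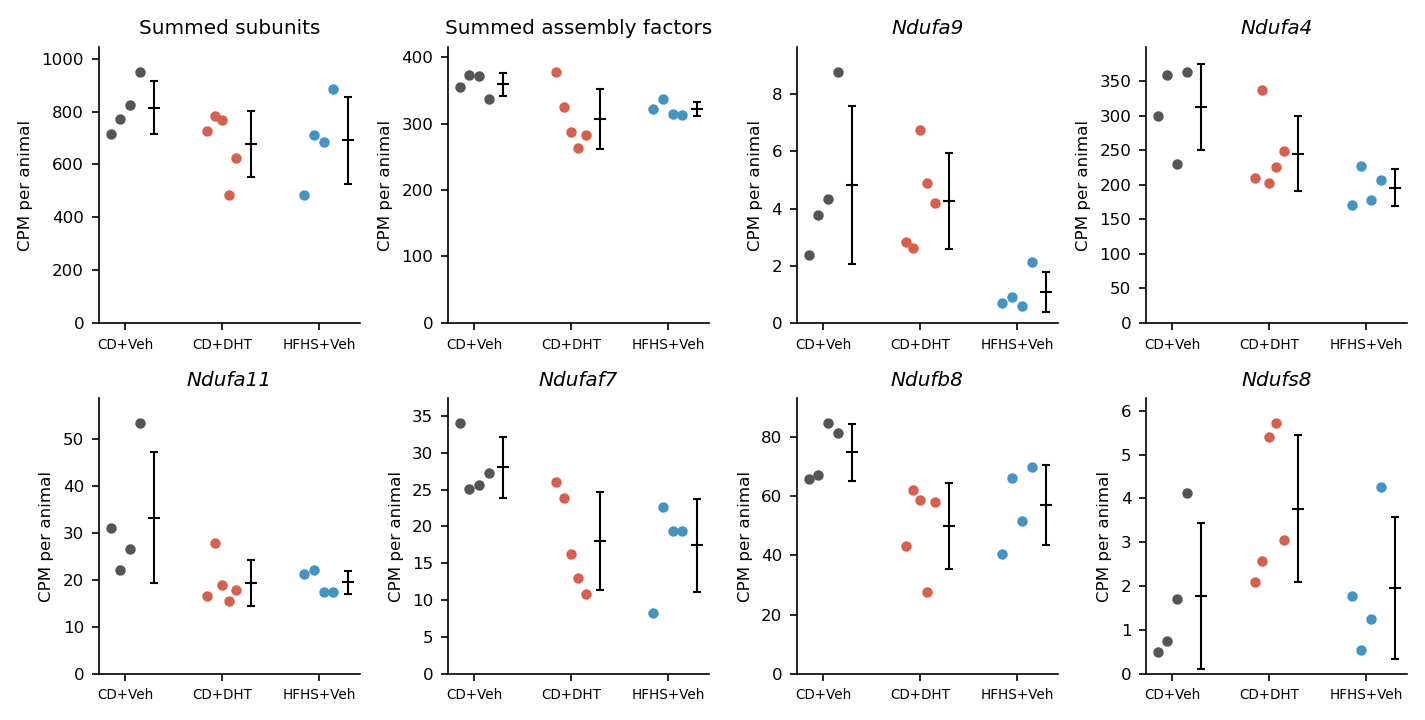
CPM per animal in F2 for the summed subunits, the summed assembly factors and 6 members named in the text; points are animals and the bar beside them is the mean ± SD of the group. Ndufa9 is at or below 2.13 in all 4 HFHS+Veh animals and at or above 2.39 in all 4 CD+Veh animals, while the summed subunits overlap.

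The core subunits had no common direction in F2. In CD+DHT the log2 folds were -0.22 for Ndufs1, -0.28 for Ndufs3, -0.13 for Ndufs7, 1.38 for Ndufs8, -0.74 for Ndufv1 and 0.46 for Ndufv2. In HFHS+Veh they were -0.35, -0.16, -0.52, 0.31, -0.68 and -0.15. Core subunits with an unadjusted p under 0.05 numbered 0 of 7 in both. Among the assembly factors, the abundant Ndufaf2 (-0.06 and -0.14) and Ndufaf4 (-0.06 and -0.02) were close to 0 in CD+DHT and HFHS+Veh. The rare ones scattered more, with -0.31 and 0.64 for Ndufaf1, -1.34 and -1.16 for Ndufaf3 and -0.35 and 0.09 for Ndufaf6.

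Other genes of oxidative phosphorylation were counted in F2 in the same way. Of 37 tested subunits of complexes II to V, 22 were below 0 in CD+DHT (median log2 fold -0.06) and 24 in HFHS+Veh (-0.10). Of 8 tested complex I assembly factors without an Ndufaf name, 7 and 6 were above 0, with medians of 0.50 and 0.31, and 0 had an unadjusted p under 0.05. Of 6 tested regulators of mitochondrial genes, 1 was above 0 in CD+DHT and 3 in HFHS+Veh. Ppargc1a, a coactivator of mitochondrial biogenesis, had a log2 fold of -4.12 ± 1.63 in CD+DHT (unadjusted p = 0.0221, edgeR) at a mean of 0.530 CPM.

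In F1 and F3 the oocytes of at least 1 group in each comparison name no animal, so values were pooled over oocytes with exact 95% Poisson intervals and no test was made. The intervals cover counting error only, not the spread between oocytes. Folds are given for the 17 members whose pooled values averaged 10 CPM or more across the 11 groups (13 subunits, 3 assembly factors and Ndufa4). Just inside that filter were Ndufs1 (10.8) and Ndufb5 (10.9), and just outside Ndufb11 (8.66), Ndufb3 (8.11) and Ndufv2 (7.95). In all 6 comparisons the oocytes of the groups overlapped for each of the members named.

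For F1 CD+DHT against CD+Veh, 3 of 17 members were at least 1.5-fold higher (4.79% of all genes) and 0 lower (6.28%). Ndufa11 stood at 30.6 CPM (26.9 to 34.7) against 18.3 (16.5 to 20.1), a log2 fold of 0.75. Ndufa6, a matrix-arm subunit of the LYR family, had 26.58 against 16.9 (0.65), and Ndufa1 65.3 against 42.3 (0.63). On the lower side were Ndufa8 (-0.29), Ndufs1 (-0.28) and Ndufb6 (-0.24). Ndufa8 turned to 0.52 with the mean and 0.36 with the median of CPM over oocytes, and to 0.05 without CD+DHT oocyte 6, while Ndufs1 and Ndufb6 were -0.85 and -0.68 with the mean. Single oocytes of Ndufa1 ran from 19.8 to 97.9 in CD+DHT and from 0 to 69.5 in CD+Veh. Leaving out single oocytes gave 2 to 3 higher and 0 to 1 lower, the latter 1 without CD+DHT oocyte 2, and counting 2 without CD+DHT oocyte 6.

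For F1 HFHS+Veh against CD+Veh, 2 of 17 were at least 1.5-fold higher (3.93%) and 0 lower (2.83%). Ndufa2, a thioredoxin-like matrix-arm subunit, had 20.2 CPM (18.9 to 21.6) against 10.8 (9.49 to 12.3), a log2 fold of 0.90. Ndufb5 had 14.34 against 9.15 (0.65), and Ndufs1 followed with 0.52. Ndufaf4 (-0.21), Ndufa10 (-0.18) and Ndufb2 (-0.11) were the lowest. The 15 HFHS+Veh oocytes carry the contradicting hormone label. Their oocyte 1 had the highest subunit sum, 1353, and a cumulus sum of 10615 CPM. Without it the count higher was 0, without oocyte 11 it was 4, and without oocyte 12 it was 1.

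For F1 HFHS+DHT against CD+Veh, 1 of 17 was at least 1.5-fold higher (4.71%) and 1 lower (8.42%). Ndufa2 had 16.7 CPM against 10.8 (0.63), ahead of Ndufb5 (0.42) and Ndufa6 (0.24). Ndufa10 had 166 CPM (160.1 to 172) against 253 (247 to 260), a log2 fold of -0.61, ahead of Ndufa8 (-0.35) and Ndufa13 (-0.30). With the mean of CPM over oocytes the directions of Ndufb5 (-0.11), Ndufa6 (-0.17) and Ndufa8 (0.27) turned. Single oocytes of Ndufa10 ran from 39.6 to 289 against 117 to 331. The count higher was 0 without HFHS+DHT oocyte 10 or 15 or CD+Veh oocyte 11, and 2 without CD+Veh oocyte 6. The count lower was 0 without HFHS+DHT oocyte 3, 5, 6 or 7 or CD+Veh oocyte 6, and 2 without HFHS+DHT oocyte 10.

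For F1 HFHS+DHT against HFHS+Veh, 0 of 17 were at least 1.5-fold higher (2.18%) and 2 lower (6.82%). Ndufa8, a membrane-arm subunit facing the intermembrane space, had 13.6 CPM (11.9 to 15.4) against 24.4 (22.99 to 25.98), a log2 fold of -0.85. Ndufs1 had 5.88 against 9.67 (-0.72), and Ndufa13, also known for a role in cell death, -0.51. Ndufb2 (0.26), Ndufaf4 (0.24) and Ndufa11 (0.18) were the highest. Without HFHS+Veh oocyte 1 the count lower was 0, without HFHS+Veh oocyte 12 or HFHS+DHT oocyte 6 it was 1, and without HFHS+Veh oocyte 11 it was 3.

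For F3 CD+DHT against CD+Veh, 2 of 17 were at least 1.5-fold higher (11.8%) and 0 lower (11.3%). Ndufs4 had 43.4 CPM (41.5 to 45.3) against 23.8 (22.54 to 25.03), a log2 fold of 0.87. Its oocyte medians went the other way, 14.7 in CD+DHT against 19.8 in CD+Veh (log2 ratio -0.43), with single oocytes from 5.86 to 78.9 and from 0 to 74.8. A pooled value weights oocytes by depth, and CD+DHT oocyte 13 alone gave 34.3% of the Ndufs4 counts of its group. Ndufb2 had 3.24 against 2.15 (0.59), and Ndufa8 followed with 0.56. Ndufb2 lay below the CPM threshold of the filter in each of these F3 groups and passed it only through its F1 and F2 values. The lowest were Ndufs1 (-0.31), Ndufa6 (-0.24) and Ndufa1 (-0.23). None of these directions held under every setting. With the mean of CPM over oocytes Ndufa6 stood at 1.44, Ndufa1 at 0.95 and Ndufs1 at -2.75, and with the median Ndufa6 stood at 1.25. Ndufs1 was 0.09 with the stricter oocyte filter and 0.15 without the oocytes rich in cumulus RNA. It ran from -1.84 without CD+DHT oocyte 14 to 0.07 without CD+Veh oocyte 21. The oocytes called rich in cumulus RNA were F3 CD+Veh 19 and 21, F1 HFHS+Veh 1, and oocyte 1 of F2 HFHS+Veh animal 5. They were a fixed list and not those past a cutoff. The last had a cumulus sum of 4657 CPM, while F3 CD+Veh oocyte 17, with 8598, was not on the list. The count higher was 1 without CD+DHT oocyte 5, 7, 9, 11 or 12, or CD+Veh oocyte 2, 3, 5, 15, 19 or 24, and 4 without CD+DHT oocyte 15. The count lower was 1 without CD+DHT oocyte 14.

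For F3 HFHS+Veh against CD+Veh, 1 of 17 was at least 1.5-fold higher (7.15%) and 2 lower (17.8%). Ndufs4 had 39.5 CPM (35.2 to 44.3) against 23.8 (0.74), with single oocytes from 0 to 86.9. Ndufaf4 (0.48) and Ndufa8 (0.42) followed, the latter at -0.11 without oocyte 2 of animal 22. The median of Ndufa8 over all 46 F3 oocytes was 5.28 CPM, under the threshold of the filter. Ndufa11 had 1.31 against 2.09 (-0.68), Ndufb8 5.74 against 9.07 (-0.66), and Ndufb2 -0.46. In each of these F3 groups Ndufa11, Ndufb8 and Ndufb2 lay below the CPM threshold of the filter. They passed it only through their higher F1 and F2 values, so their F3 folds compare low levels. The HFHS+Veh oocytes come from 2 animals and had no more than 1186699 counts each. The count higher was 0 without oocyte 1 of HFHS+Veh animal 22, and 2 without oocyte 3 or 7 of that animal or CD+Veh oocyte 21. The count lower was 0 without oocyte 1 or 3 of animal 22, 1 without oocyte 6 or 7 of HFHS+Veh animal 26 or CD+Veh oocyte 2 or 11, and 4 without oocyte 4 or 8 of animal 26.

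**Figure D5:**
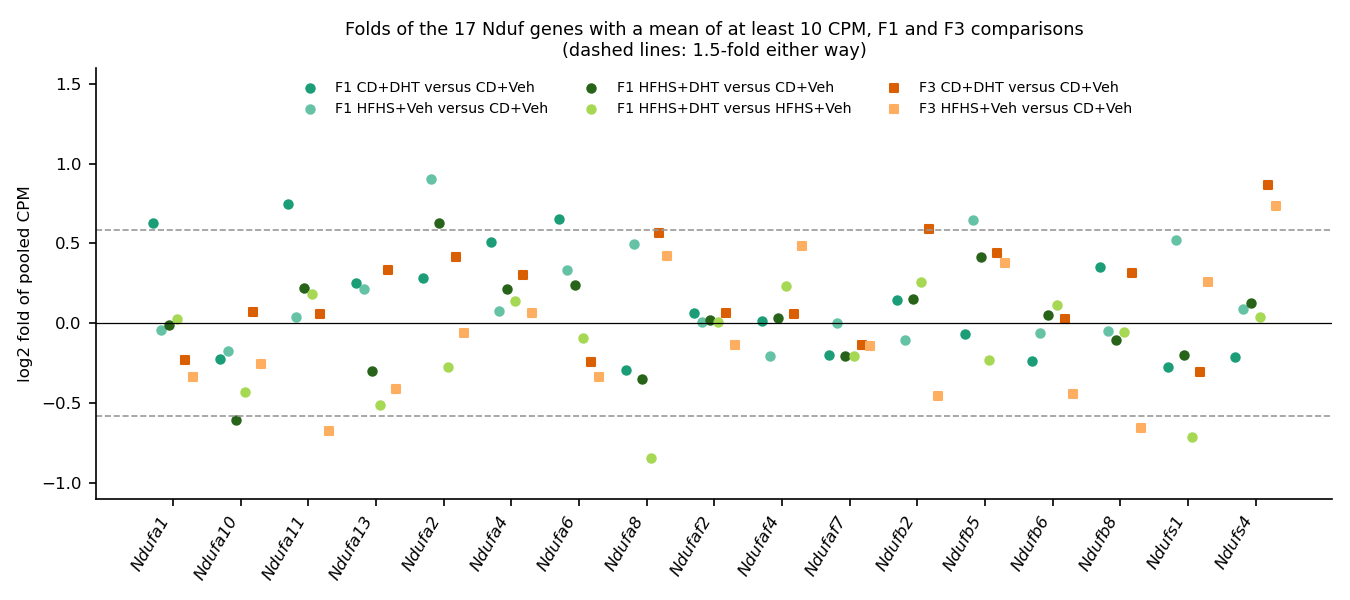
Log2 fold of pooled CPM for the 17 members past the filter in the 4 F1 comparisons (circles) and the 2 F3 comparisons (squares); dashed lines mark 1.5-fold in either direction and each point is 1 pooled value without an error bar. Ndufaf2 and Ndufaf7 stay near 0 throughout, and Ndufs4 is past the line in both F3 comparisons.

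By role, the median log2 fold of the 3 past the filter (Ndufaf2, Ndufaf4 and Ndufaf7) was 0.02, -0.00, 0.02 and 0.01 in the 4 F1 comparisons as ordered above and 0.06 and -0.14 in F3. The 3 did not move together: in F3 HFHS+Veh Ndufaf4 was above 0 and the median below it, and leaving out single oocytes took the median to -0.17 in F1 CD+DHT and -0.15 in F1 HFHS+DHT against CD+Veh. That of the 13 subunits was 0.15, 0.09, 0.05 and -0.09 in F1 and 0.31 and -0.34 in F3, where all genes had -0.01, -0.02, -0.04, -0.02, 0.03 and -0.07. Apart from Ndufa10 and Ndufs4, these subunits had medians of 1.18 (Ndufa2) to 8.21 CPM (Ndufb8) over the 46 F3 oocytes. These lie under the 10 CPM of the filter, whose mean favours genes high in F1 and F2. The F3 subunit medians therefore rest mostly on low levels and are not read as a result about the members. The comparisons of 1 generation share control oocytes, so their values are not independent. No member was past 1.5-fold in the same direction in both the F1 and the F3 comparison of 1 treatment, and of those past it only Ndufa11 had an unadjusted p under 0.05 in the same direction in F2. It was lower in HFHS+Veh in F2 (log2 fold -0.64, edgeR) and in F3 (-0.68), where its 95% Poisson intervals of 0.626 to 2.4002 and 1.74 to 2.49 CPM overlapped, and it stood at 0.04 in F1.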

How the data were processed

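RNA of 202 single MII oocytes was measured by Smart-seq2, each library being 1 oocyte. The authors deposited raw counts per gene symbol (24582 lines: 92 spike-in RNAs, 1 eGFP line with 0 counts and 24489 gene lines, repeated symbols being summed here) and a table of RPKM values (reads scaled to gene length and library size) of the same libraries. Per the submitters' processing notes, the build was mm10 and the tools included STAR 2.4.2a and Seurat 2.0. No source used here names the counting program, the annotation or the strand setting, so overlapping antisense genes cannot be told apart. Apart from the RPKM table, the deposited normalised tables were not used.

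CPM was taken over gene counts. Lists, members and tests were chosen with earlier results of these data known, and the comparisons between generations were added after seeing the data. F2 counts were summed per animal, scaled with TMM, filtered with filterByExpr and tested with edgeR 4.0.16 (quasi-likelihood, all 13 animals of CD+Veh, CD+DHT and HFHS+Veh in 1 fit, Benjamini-Hochberg adjustment over 11962 genes, threshold 0.05) in R 4.3.3. DESeq2 1.42.0 and limma 3.58.1 (on the mean of log2(CPM + 1) per animal) were alternatives. Standard errors are the log2 fold divided by the root of edgeR's F. In simulated counts of the CD+DHT comparison, edgeR called 83.3% of genes set 4 log2 units lower, 51% of genes set 2 lower, and 10 of 11264 unchanged genes. F1 and F3 values were pooled over oocytes, and more than 3 counts in both groups were required for folds between generations. Reads without molecular identifiers are not independent molecules, so intervals cover counting error only. The p-values set a difference against the spread between the F2 animals sampled, not between F0 females.

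Members were named with values by class (core subunits, assembly factors, Ndufa4 and Ndufa4l2), by level (8 highest and 5 lowest, with ties), in F2 by smallest p (3 each way) and in F1 and F3 by fold (3 each way). Others were named after their values were seen, where a count was 5 or fewer. Implied length is the gene length at which the counts and the gene total of an oocyte give its RPKM. Positions are from GENCODE vM21 and promoters from RefSeq, both on GRCm38. Tables and figures were made with Python 3.11.15, pandas 2.3.3, scipy 1.17.1 and matplotlib 3.10.9. The values of 1 member are not reported here, though it enters the counts, sums and medians.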

Additional observations from a re-analysis of the deposited data

Results flagged for a closer look

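In 117 checks of members and sums within groups of 4 to 10 animals or oocytes, 13 held a single value set apart from the rest by Dixon's gap test, which chance gives in about 1 of 20 groups. Among F2 animals, the CPM of Ndufa11 was 27.9 in CD+DHT animal 6 (next 18.9), of Ndufa4l2 3.66 (next 0.191) and of Ndufaf1 1.43 (next 0.407) in CD+DHT animal 7, and of Ndufs1 21.98 in CD+DHT animal 8 (next 10.18). CD+Veh animal 3 had 3.98 CPM of Ndufa4l2 (next 0.201) and 5.63 of Ndufs7 (next 2.21). HFHS+Veh animal 5 had 3.15 CPM of Ndufaf1 (next 0.0597) and 10.6 of Ndufb7 (next 3.35).

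Among F1 oocytes, CD+Veh oocyte 2 had the lowest subunit sum, 440.2 CPM (next 609). CD+Veh oocyte 8 had 62.0 CPM of Ndufa13 (next 37.9) and 65.4 of Ndufa6 (next 20.2), and CD+Veh oocyte 7 had 98.3 of Ndufb2 (next 38.4). CD+DHT oocyte 11 had 257.0 CPM of Ndufaf4 (next 191).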

How the results depend on the processing

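No paired analysis was possible because the F2 animals of different groups share no number, and the F1 and F3 comparisons come from no test. In F2, edgeR called 0 genes in both comparisons under every alternative edgeR fit and without each animal; DESeq2 called 2 in CD+DHT and 1 in HFHS+Veh. The log2 fold of Ndufb5 in CD+DHT was -0.23 with limma. That of Ndufs8 in HFHS+Veh was -0.12 with limma, -1.102 without the oocytes whose characteristics name F3, and -0.26 (without HFHS+Veh animal 5) to 0.96 (without CD+Veh animal 3) as animals were left out. The cause was not tested.

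The F1 and F3 counts past 1.5-fold depended on the settings. A filter at 1 CPM admits more members than the 17 used above and a filter at 20 CPM fewer, so counts there are not out of 17. The share of all genes past the fold was not computed under these settings. For F1 CD+DHT, the count lower was 2 with mean CPM, 1 with median CPM, 4 with a filter at 1 CPM and 2 with RPKM, and the count higher was 7 at 1 CPM, 1 at 20 CPM and 0 at 2-fold; without single oocytes 2 to 3 were higher and 0 to 1 lower. For F1 HFHS+Veh, lower was 1 with mean CPM and with RPKM; higher was 1 with median CPM, 15 at 1 CPM (subunit median 0.51), and 0 at 20 CPM, at 2-fold and without the oocytes rich in cumulus RNA; without single oocytes it was 0 to 4. For F1 HFHS+DHT against CD+Veh, higher was 0 with mean CPM, median CPM, RPKM, at 20 CPM and at 2-fold, and 7 at 1 CPM; lower was 2 with mean CPM, median CPM and RPKM, 5 at 1 CPM and 0 at 2-fold; without single oocytes 0 to 2 in either direction. For F1 HFHS+DHT against HFHS+Veh, lower was 4 with mean CPM, 16 at 1 CPM (subunit median -0.49), and 0 at 20 CPM, at 2-fold and without the cumulus-rich oocytes; without single oocytes 0 to 3.

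For F3 CD+DHT, higher was 7 with mean CPM, 6 with median CPM, 8 at 1 CPM, 7 with RPKM, 1 with the stricter oocyte filter (500000 counts, 6000 genes), 1 without the cumulus-rich oocytes and 0 at 2-fold; lower was 1 with mean CPM, median CPM and RPKM and 5 at 1 CPM; without single oocytes 1 to 4 higher and 0 to 1 lower. The log2 fold of Ndufs4 there was -0.43 with median CPM. For F3 HFHS+Veh, lower was 5 with median CPM, 7 at 1 CPM, 1 at 20 CPM, 4 with the stricter filter and 0 at 2-fold; higher was 7 at 1 CPM, 4 with the stricter filter, 2 without the cumulus-rich oocytes and 0 at 2-fold; without single oocytes 0 to 2 higher and 0 to 4 lower. The filter at 1 CPM tests more members, and 2-fold is the stricter fold by construction; the cause of the other shifts was not tested.

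For F3 against F2 the median of short members in CD+Veh was -2.44 with mean CPM and with RPKM, and in CD+DHT -2.82 to -2.19 without single oocytes. In HFHS+Veh the median of longer members was 0.12 without the oocytes of contradicting generation. The rare members Ndufv1, Ndufs8, Ndufaf1, Ndufaf3, Ndufaf5 and Ndufa4l2 gave few counts per oocyte, so small differences in them were not detectable at this depth.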

Other observations

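Within a generation, oocytes with more of the summed subunits also had more of other mitochondrial transcripts. Spearman's rho between the summed subunits and the summed subunits of complexes II to V was 0.66 over 45 F1 oocytes, 0.85 over 66 F2 oocytes and 0.49 over 46 F3 oocytes. With the summed cumulus markers it was 0.62, 0.74 and 0.45, with the number of genes detected 0.30, 0.67 and 0.03, and with the summed assembly factors 0.05, 0.10 and 0.35. The oocytes share groups and depth, so these values describe the libraries and carry no test.

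Single members were less alike. Among the 18 members with a count in at least 90% of oocytes, 153 pairs had a median rho of 0.13 in F1, 0.19 in F2 and 0.15 in F3. The highest pair was Ndufa1 with Ndufa4 in F1 (0.71) and F2 (0.75), and Ndufa4 with Ndufaf2 in F3 (0.73), all of them short genes. The lowest in F1 was Ndufaf7 with Ndufb2 (-0.44). The part of length in these pairs was not tested.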
